A study of Homo sapiens with 24 samples.

Results

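A set of 6 RNA-seq libraries of human embryonic kidney HEK293 cells was compared, 3 of untreated parental cells (called WT) and 3 of Klotho-expressing cells (called Kl) after 24 h with FGF23, out of 24 libraries in the series. They were taken by their labels alone. WT cells are labelled wild type, and Kl cells carry a stable Klotho transfection. The promoter of the construct, and whether Kl cells are 1 clone or a pool, are not given in the sources used here. Both kinds of cell grew in MEM with heat-inactivated serum, penicillin and streptomycin. Treated cells received 10 nM recombinant human FGF23 for 24 h, and control cells are labelled Ctrl with no vehicle named. Untreated Kl cells of 24 h, WT cells with 10 nM FGF23 for 24 h, and untreated WT and Kl cells of 1 h served for side-by-side values, 3 libraries each. The comparison asked which differences between the lines are gone, still there or newly present once Kl cells have seen FGF23. Replicates are not said to be separate cultures, so p-values measure only the spread between these libraries, which may be technical.

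FGF23 is a bone hormone that acts on the kidney to lower phosphate reabsorption and active vitamin D. It binds FGF receptors well only where the membrane protein Klotho (KL) serves as co-receptor. The activated receptor signals through FRS2, RAS and ERK. ERK signalling switches on immediate-early transcription factors such as EGR1 and FOS, and then a set of feedback inhibitors, among them the Sprouty and SPRED proteins and the ERK phosphatase DUSP6. HEK293 is an adherent embryonic kidney line that also expresses neuronal genes.

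The 6 libraries held 17606966 to 29116838 counts each, and all 24 held 15849564 to 30446989. Between 5.35 and 6.31% of the counts in the 6 libraries were of mitochondrially encoded genes. Replicate 1 of treated Kl cells stood apart from its group, with a chi-square per gene of 5.57 and 5.4 against the other replicates, which differed from each other by 2.35; among untreated WT libraries the values were 1.99 to 2.19. Counts of genes and classes are therefore also given without this library, and list counts where it moved them by over 1.5 times. The labels call the cells kidney epithelial. Nephron markers were near 0: summed FPKM, the authors' value per transcript length, of 6 proximal tubule markers was 1.1 to 1.45 in untreated WT and 1.18 to 1.44 in treated Kl cells, with SLC34A1 and SLC22A6 at 0 counts. Endothelial and blood markers summed to at most 1.04 FPKM in these libraries, with HBB at 0. Epithelial markers (11) summed to 203 to 208 FPKM in untreated WT, 115 to 120 in untreated Kl and 136 to 146 in treated Kl cells, and GRHL2 was at 0 counts.

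KL, the transfected gene, had 0, 2 and 0 counts in the untreated WT libraries and 32844, 52909 and 45385 in the treated Kl libraries. Untreated Kl libraries had 17944, 16072 and 16481. As CPM (counts made comparable across libraries by their scaled totals), KL was 1814 to 1924 in treated and 1009 to 1021 in untreated Kl cells, with no overlap. The rise of KL with FGF23 in Kl cells was 0.89 on the log2 scale. Reads of the construct and of the endogenous gene cannot be told apart in these counts. KLB, the co-receptor for other endocrine FGFs, had at most 10 counts in the 6 libraries, and FGF23 itself at most 1.

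Treated Kl cells differed from untreated WT cells in 6917 of 17173 genes tested (40.3%) at an adjusted p under 0.05 (edgeR quasi-likelihood F test, Benjamini-Hochberg over all genes, log2 fold changes throughout). Of these, 3706 were higher (21.6% of tested) and 3211 lower (18.7%). The list counts below are to be read against these shares. The split depended on scaling: with library totals alone, the median of all genes was -0.08 and 2402 of 6905 called genes (34.8%) were higher, against 53.6% here. At 1.5-fold or more, 1411 genes (8.22%) passed, 347 higher (2.02%) and 1064 lower (6.20%). Without replicate 1 of treated Kl cells 7189 genes passed, and with all 24 libraries in the fit 4558. Between untreated Kl and untreated WT cells the same fit called 6416 genes (37.4%), with 19.3% of tested genes higher and 18.0% lower. FGF23 within Kl cells called 3779 (22.0%), with 11.6% higher and 10.5% lower, and FGF23 within WT cells called 32 (0.186%).

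The difference between treated Kl and untreated WT cells is the untreated line difference plus the change with FGF23 in Kl cells, so each gene was sorted by these 3 fitted contrasts. A line difference means an adjusted p under 0.05 and at least 1.5-fold between untreated Kl and untreated WT cells at 24 h, and there were 1267 of them (7.38%), 296 higher (1.72%) and 971 lower (5.65%) in Kl cells. After FGF23, 602 (47.5% of line differences) were kept, meaning still at least 1.5-fold apart from WT in the same direction and with no called change. Another 132 (10.4%) were removed: FGF23 moved them against the line difference and treated Kl cells no longer differed from WT. A further 20 (1.58%) were reversed, 25 (1.97%) reduced but still present, and 45 (3.55%) enlarged. With all 24 libraries in the fit, 105 were removed, 12 reduced and 18 enlarged, and DESeq2 gave 99 removed and 416 kept. The other 443 (35.0%) fell in no class. Of these, 254 had neither a called difference in treated cells nor a called change with FGF23. Besides, 158 genes with no called line difference were added, that is, at least 1.5-fold apart from WT only after FGF23, with 81 higher and 77 lower.

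A gene not called is not shown to be equal. Among the 132 removed genes, the 95% interval of the difference between treated Kl and untreated WT lay within 1.5-fold for 78 and within 2-fold for 115. All 20 reversed genes were lower than WT in untreated Kl cells and higher after FGF23. The removed genes held 92 that had been lower and 40 that had been higher. The classes share libraries: the untreated Kl libraries enter the line difference and the FGF23 change with opposite sign. The control libraries of 1 h share none with the comparison of treated Kl and untreated WT cells and read the line difference again. There, 44 of 121 removed genes tested (36.4%) were called in the same direction and 0 in the other, against 334 of 562 kept genes (59.4%), 23 of 25 reduced and 7 of 19 reversed genes. For all genes, 10.7% were called higher and 10.9% lower in those controls. Leaving out replicate 1 of treated Kl cells gave 154 removed, 16 reversed, 24 reduced, 611 kept, 48 enlarged and 205 added genes. Of the original members, 120 of 132 removed, 16 of 20 reversed and 131 of 158 added genes stayed in their class.

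**Figure D1:**
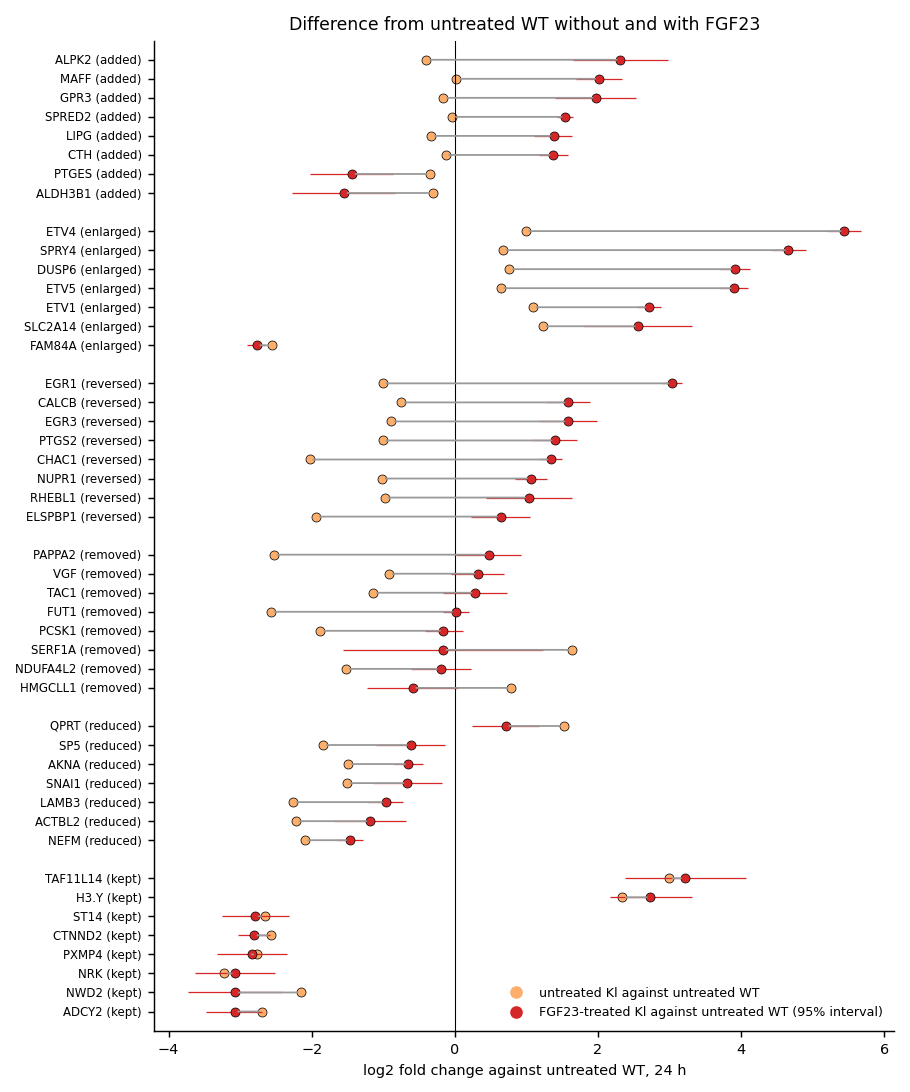
Log2 fold change against untreated WT cells at 24 h, for untreated Kl cells (orange) and for FGF23-treated Kl cells (red, with its 95% interval), for up to 8 protein-coding genes of each class (KL, at 15.63, left out for scale). The lines join both values of a gene: reversed genes cross 0 from left to right, as CHAC1 does from -2.03 to 1.34, and kept genes such as ADCY2 stay near -3.

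The highest genes in treated Kl cells after KL were feedback and effector genes of FGF receptor signalling. ETV4 (ENSG00000175832, chr17:43527844-43579620 in GRCh38), an ETS transcription factor of the PEA3 family, had 1.28, 1.61 and 1.91 CPM in untreated WT and 76.5, 68.7 and 65.2 in treated Kl libraries. Untreated Kl libraries, at 2.79 to 3.52 CPM, lay between, and no group overlapped another. ETV4 was thus 43.4-fold higher in treated Kl than in untreated WT cells (log2 5.44, SE 0.116, adjusted p 1.36e-35), of which 0.99 was already there without FGF23. SPRY4, a Sprouty inhibitor of RAS-ERK signalling, had 1.5, 2.19 and 1.91 CPM in WT and 50.8, 48.8 and 46.3 in treated Kl cells (log2 4.66, SE 0.117). DUSP6, which dephosphorylates ERK, went from 2.88 ± 0.258 CPM (SD, n = 3) in WT through 4.87 ± 0.335 in untreated Kl to 43.2 ± 1.65 in treated Kl cells. ETV5 and ETV1, the other PEA3 members, were 14.9-fold and 6.55-fold higher. For all 5 genes the small excess of untreated Kl cells passed the test, so they count as enlarged. In the 1 h controls ETV4, ETV5 and ETV1 were again called higher in Kl cells, with log2 values of 0.91, 0.83 and 0.71, whereas SPRY4 (0.59) and DUSP6 (0.35) were not.

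SPRED2, which blocks RAF activation by RAS, was added by FGF23. It had 33.1, 30.3 and 31.7 CPM in untreated WT, 29.3, 30.8 and 32.5 in untreated Kl and 88.4, 91.6 and 95.4 in treated Kl libraries. The untreated lines overlapped and treated Kl cells stood clear of both, 2.9-fold above WT (log2 1.54, SE 0.0559, adjusted p 9.61e-27). The phosphatases DUSP4 (1.16) and DUSP5 (1.15) were also added. SPRY2, at 1.49, and SPRED1, at 1.41, were as far from WT but belong to no class, because a line difference under 1.5-fold was called in untreated cells. Of 30 feedback genes tested, 18 were higher and 4 lower in treated Kl than in untreated WT cells, with a median log2 difference of 0.30 against -0.00 over all genes (16 higher and 7 lower with library totals alone). The line difference alone had 11 higher and 7 lower, with a median of 0.06. FLRT3, a membrane protein that binds FGF receptors, went the other way: it was lower in untreated Kl cells (-0.60) and lower still after FGF23 (-1.45). DUSP8 (-0.91) and DUSP10 (-0.64), phosphatases that act mainly on JNK and p38, kept a level below WT.

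Of 12 tested genes of the receptor and its adaptors, KL included, 7 were higher and 0 lower in treated Kl cells. The 7 are 58.3% of the list, against 21.6% of all genes tested, and KL, the transfected gene, is among them. Without FGF23, 5 were higher (41.7%, against 19.3% of all genes) and 1 lower. FGF23 in Kl cells raised 3 (25%, against 11.6%). FGFR1, the main FGF23 receptor with Klotho, had 93.2, 96.6 and 93.3 CPM in WT, 97.9, 92.4 and 96.8 in untreated Kl and 135, 140.4 and 135 in treated Kl libraries. Its difference from WT, 0.54 (SE 0.0422, adjusted p 2.1e-14), was larger than that between the untreated lines of 24 h (0.02, adjusted p 0.765), and FGF23 in Kl cells raised it by 0.52. In the 1 h controls FGFR1 was lower in Kl cells (-0.21, adjusted p 0.01), and the line differences of 24 h and 1 h differed (adjusted p 0.048). FGFR4 (0.39) and FGFR2 (0.22) were also higher in treated Kl cells, but in these genes the line difference was 0.45 and 0.28 without FGF23. FGFR3 was at -0.01, with a 95% interval from -0.11 to 0.09.

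**Figure D2:**
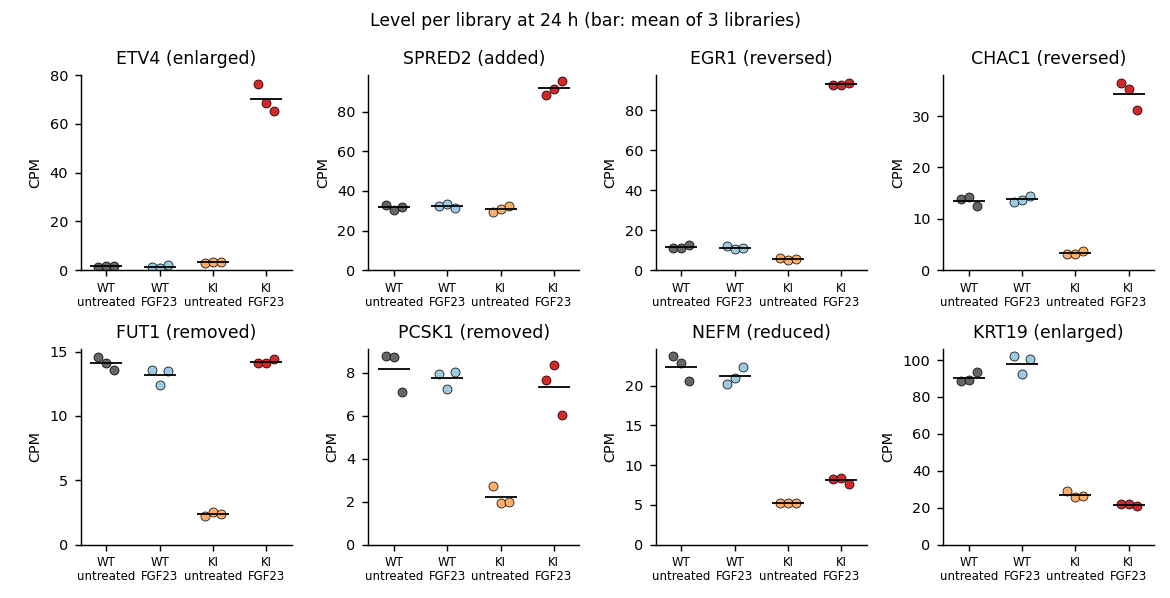
CPM per library (points) and mean of 3 libraries (bar) at 24 h for 8 genes, in untreated and FGF23-treated WT and Kl cells. ETV4 reached 65.2 to 76.5 CPM in treated Kl libraries only, and FUT1 returned there to the WT level of about 14.1 CPM. KRT19 was at 26 to 29 CPM in untreated Kl and 20.8 to 22.1 in treated Kl libraries, below both WT groups.

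Immediate-early genes of ERK signalling made up 6 of the 20 reversed genes. EGR1 (ENSG00000120738, chr5:138465490-138469315), a zinc finger transcription factor, had 10.9, 10.9 and 12.4 CPM in untreated WT, 6.2, 5.09 and 5.57 in untreated Kl and 92.7, 92.4 and 93.3 in treated Kl libraries. Untreated Kl cells were the lowest group and treated Kl cells the highest, with no overlap. The difference from WT thus went from -1.01 to 3.03 (SE 0.0699, adjusted p 9.67e-35). EGR3 crossed from -0.89 to 1.58, and FOS, a subunit of AP-1, from -0.63 to 1.02. PTGS2, the inducible prostaglandin synthase, had 3.06, 3.21 and 3.32 CPM in WT, 1.59 ± 0.424 in untreated Kl and 7.57, 9.66 and 7.93 in treated Kl cells. It was lower in the Kl controls of 1 h as well, at -1.44. FOSL1 and GDF15 were the other reversed members, and GDF15 only just passed (0.59, adjusted p 0.0492). EGR1 (-0.52) and FOSL1 (-0.83) were also called lower in the 1 h controls. EGR3 (-0.65, adjusted p 0.169), FOS (-0.17, adjusted p 0.741) and GDF15 (-0.28, adjusted p 0.738) were not called there.

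For other immediate-early genes the difference from WT was no longer called after FGF23. ZFP36, which promotes decay of short-lived mRNAs, had 14, 12 and 12.3 CPM in WT, 6.3 ± 1.27 in untreated Kl and 12, 11.6 and 11.4 in treated Kl libraries. KLF2, KLF4 and ARC were likewise removed from the line differences, but KLF4 lay wholly below the WT libraries (-0.15, interval -0.29 to -0.01) and ARC wholly above them (0.33, interval 0.01 to 0.64). MAFF, a small MAF factor, was added, with 2.11, 2.12 and 2.97 CPM in WT and 9.83, 9.66 and 9.46 in treated Kl cells (log2 2.01, SE 0.162). MYC, by contrast, was above WT without FGF23 (1.06) and with it (0.90). In all, 17 of 33 tested genes of this list were higher and 6 lower than WT after FGF23, with a median of 0.33 (16 and 9 with library totals alone). Without FGF23 the list had 3 higher and 20 lower, with a median of -0.41. JUN (-0.33 to -0.50) and BTG2 (-0.14 to -0.56) were among the lower ones, and FGF23 in Kl cells moved both further down. FOSB was lower too (-0.96 to -0.81), with no called change.

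The 250 bases before the RefSeq start of EGR1 (GRCh38.p14, chr5:138465229-138465478, plus strand) are shown because EGR1 crossed furthest. Capitals mark CArG boxes, the serum response factor motif of a CC, a run of A or T and a GG.
EGR1: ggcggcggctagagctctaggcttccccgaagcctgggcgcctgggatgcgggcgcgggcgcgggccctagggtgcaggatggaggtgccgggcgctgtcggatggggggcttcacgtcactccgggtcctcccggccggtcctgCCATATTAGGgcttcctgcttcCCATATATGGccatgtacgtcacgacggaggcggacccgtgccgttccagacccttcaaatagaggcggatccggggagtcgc
Such a box stood in 1.14% of 27305 promoters of this length, on either strand, and in 2 of 25 promoters found for the immediate-early list, EGR1 and SRF. A match is a description of the letters only.

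Genes of the ATF4 and amino acid response, which supply amino acids and handle oxidative stress when ATF4 is translated, were the list most widely below WT in untreated Kl cells. There 25 of 28 tested members were lower and 1 higher, with a median of -0.66. In treated Kl cells 23 were higher than WT and 2 lower, with a median of 0.44 against -0.00 over all genes, and 26 rose with FGF23. Leaving out replicate 1 of treated Kl cells gave the same 23 and 2. ATF4 itself had 490.1, 509 and 475 CPM in WT, 274 ± 4.08 in untreated Kl and 687, 682 and 665 in treated Kl libraries, so both Kl groups lay outside the WT range, on opposite sides.

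CHAC1 (ENSG00000128965, chr15:40952962-40956519), a glutathione-degrading enzyme, had 13.9, 14.2 and 12.5 CPM in WT, 3.07, 3.08 and 3.8 in untreated Kl and 36.4, 35.3 and 31.2 in treated Kl libraries. Its difference from WT went from -2.03 to 1.34 (SE 0.0824, adjusted p 5.24e-18). The large amino acid transporter SLC7A5 crossed from -0.64 to 0.98, asparagine synthetase ASNS from -0.72 to 0.84, NUPR1, a stress-induced chromatin protein, from -1.02 to 1.06, and the secreted glycoprotein STC2 from -0.93 to 0.61. Others went past WT by less than 1.5-fold. PSAT1, an enzyme of serine synthesis, had 416, 394 and 374 CPM in WT, 175 to 180.3 in untreated Kl and 523, 531 and 518 in treated Kl cells. The cystine transporter SLC7A11 went from -1.71 to 0.53.

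CEBPB, SLC3A2 and VLDLR were removed. CEBPB, a leucine zipper partner of ATF4, had 33.4, 34.3 and 33.7 CPM in WT and 35.6, 32.5 and 32.2 in treated Kl cells, with overlap, against 14.9 ± 2.07 in untreated Kl cells. SLC3A2, the heavy chain that pairs with SLC7A5 and SLC7A11, was 0.05 from WT after FGF23 and -0.93 before. DDIT3, a death-promoting factor of the unfolded protein response, also rose with FGF23 in Kl cells (0.54) but stayed lower than WT (-0.99 to -0.44). ALDH1L2 stayed lower as well (-0.67 to -0.51), with no called change. CTH, which makes cysteine from cystathionine, showed no called line difference (-0.13) and was 2.59-fold above WT in treated cells. In the 1 h controls PSAT1 (-0.64) and SLC7A5 (-0.42) were again lower in Kl cells, while CHAC1 (-1.38, adjusted p 0.304) did not pass. An edgeR test of the line difference at 24 h against 1 h found it larger at 24 h for PSAT1 (adjusted p 5.78e-05). The same held for SLC7A11 (-1.71 against -0.50, adjusted p 0.00228) and MTHFD2 (-0.46 against -0.06, adjusted p 0.000332). It did not pass for SLC7A5 (adjusted p 0.0606) or CHAC1 (adjusted p 0.728).

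The upstream stretches of CHAC1 (chr15:40953221-40953470, plus strand) and ASNS (chr7:97872409-97872658, minus strand), both reversed, are shown with that of FUT1 (chr19:48755359-48755608, minus strand), a removed gene described next. All come from RefSeq, GRCh38.p14. Capitals mark TGATGNAA, the letters of ATF4-C/EBP composite sites, on either strand. These stretches are shown because they hold the letters. Those of SLC7A5 (reversed), CEBPB (removed), PSAT1, MTHFD2, CTH and TRIB3 were searched too and hold none. FUT1 is not a member of the ATF4 list and was also searched for other motifs.
CHAC1: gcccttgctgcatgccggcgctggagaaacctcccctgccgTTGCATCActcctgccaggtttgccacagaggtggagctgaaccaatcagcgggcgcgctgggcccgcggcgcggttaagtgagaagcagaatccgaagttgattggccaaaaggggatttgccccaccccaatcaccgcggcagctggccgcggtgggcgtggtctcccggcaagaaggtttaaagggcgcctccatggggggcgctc
ASNS: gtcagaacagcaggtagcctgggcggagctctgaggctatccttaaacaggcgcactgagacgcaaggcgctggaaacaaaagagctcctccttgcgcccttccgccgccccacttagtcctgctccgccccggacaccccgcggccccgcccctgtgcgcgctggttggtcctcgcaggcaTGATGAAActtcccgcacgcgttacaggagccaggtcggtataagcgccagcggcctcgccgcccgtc
FUT1: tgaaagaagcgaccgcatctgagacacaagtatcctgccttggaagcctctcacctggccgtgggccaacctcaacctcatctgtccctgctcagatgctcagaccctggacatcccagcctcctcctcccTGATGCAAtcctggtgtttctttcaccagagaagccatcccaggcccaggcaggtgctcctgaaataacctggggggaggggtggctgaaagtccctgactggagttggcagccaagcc
TGATGNAA stood in 3.19% of the 27305 promoters and in 2 of the 23 found for this list, so most of its genes do not carry these letters in the window. Nothing about the factor follows from a match or its lack.

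Removed genes moved towards WT from either side, some more closely than others and some past it. FUT1 (ENSG00000174951, chr19:48748011-48755390), the fucosyltransferase that makes the H blood group antigen, had 14.6, 14.1 and 13.6 CPM in WT, 2.22, 2.52 and 2.39 in untreated Kl and 14.1, 14.1 and 14.4 in treated Kl libraries. Treated Kl and WT libraries overlapped, and the difference was 0.01 with a 95% interval from -0.17 to 0.20. Untreated Kl cells were at -2.57, and were lower in the 1 h controls too (-1.55). PCSK1, a convertase that cleaves prohormones, had 8.78, 8.72 and 7.1 CPM in WT, 2.73, 1.95 and 1.96 in untreated Kl and 7.68, 8.35 and 6.06 in treated Kl cells (difference -0.16, interval -0.42 to 0.11). Also no longer called were NDUFA4L2, a mitochondrial protein of the hypoxia response (-1.52 to -0.20), and the neuropeptide precursors TAC1 (-1.14 to 0.28, interval -0.16 to 0.73) and VGF (-0.92 to 0.32). In VGF all treated Kl libraries, at 3.53 to 3.99 CPM, lay above the WT ones at 2.81 to 3.22, with an interval from -0.05 to 0.68.

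For PAPPA2, a protease of IGF-binding proteins, the test left the difference in doubt. It had 1.56, 1.82 and 2.27 CPM in WT, 0.306 to 0.342 in untreated Kl and 2.93, 2.59 and 2.33 in treated Kl libraries. Treated Kl libraries all lay above the WT ones, with an interval from 0.01 to 0.92 and an adjusted p of 0.0992. Of genes that had been higher in Kl cells, ALPL, the tissue-nonspecific alkaline phosphatase that frees phosphate, went from 0.70 to -0.39 (interval -0.94 to 0.16). HMGCLL1, a lyase of leucine breakdown, went from 0.79 to -0.59 (interval -1.23 to 0.04). Its treated Kl libraries, at 0.509 to 0.995 CPM, all lay below the WT ones at 1 to 1.35. SERF1A also counts as removed, but its untreated Kl values were 1.71, 1.45 and 5.88 CPM, so 1 library set them, and it has a near-identical copy that could share its reads.

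Among 18 tested phosphate and vitamin D genes, ALPL was the only removed one. The list had 6 higher and 2 lower members in treated Kl cells, with a median of 0.06. These counts are 33.3 and 11.1% of the list, against 21.6 and 18.7% of all genes tested. Without replicate 1 of treated Kl cells, 7 were higher and 1 lower. The phosphate transporters SLC20A2 (0.65) and SLC20A1 (0.30) were higher than WT, and PTH1R, the parathyroid hormone receptor, only just passed as lower (-0.59, adjusted p 0.0499), with 1.28 to 1.7 CPM in treated Kl libraries overlapping the 1.61 to 2.7 of WT. SLC34A3, a renal phosphate transporter, did not pass against WT (-0.34, adjusted p 0.0908) but fell with FGF23 within Kl cells (-0.48, adjusted p 0.0307). SLC34A1, the main transporter of the proximal tubule, SLC34A2, that of gut and lung, and CYP24A1, which breaks down active vitamin D, were too low to test.

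Epithelial genes were mostly still below WT after FGF23. Of 26 tested, 20 were lower and 2 higher in treated Kl cells, with a median of -0.63, and the line difference alone had 18 lower and 0 higher, with a median of -0.68. For FGF23 in Kl cells 4 were higher and 5 lower, with a median of -0.03. Summed epithelial markers, given above, were lower in treated Kl than in WT libraries for 7 of 9 tested markers, and their part in other results was not tested. In bulk RNA, fewer cells of a type and less RNA per cell cannot be told apart. ST14, the membrane protease matriptase, had 5.23, 4.16 and 4.48 CPM in WT, 0.551 to 0.854 in untreated Kl and 0.718, 0.639 and 0.636 in treated Kl libraries. The keratin KRT17 (-2.52), the tight junction protein CLDN7 (-1.54) and the splicing factor ESRP1 (-1.71) were also kept. In CLDN7 replicate 1 of treated Kl cells had 4.97 CPM and the others 2.45 and 2.08, all below the WT range of 8.41 to 9.09.

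KRT19 (ENSG00000171345, chr17:41523617-41528308), a keratin of simple epithelia, moved further from WT. It had 88.5, 89 and 93.5 CPM in WT, 29, 26 and 26.3 in untreated Kl and 22, 22.1 and 20.8 in treated Kl libraries, and its difference went from -1.73 to -2.06 (SE 0.0571). E-cadherin, CDH1, went from -0.69 to -1.10 and the protease inhibitor SPINT2 from -0.99 to -1.14. EPCAM, an epithelial adhesion protein, moved back by 0.14, from -1.04 to -0.90. KRT18 alone crossed to above WT with a call (-0.32 to 0.38), and its partner KRT8 went from -0.56 to -0.33. These 2 genes overlap on chromosome 12, and the sources used here do not say whether counting used strand. Mesenchymal genes had 7 higher and 3 lower of 18 tested, with a median of 0.08; vimentin, VIM, did not pass (0.08, adjusted p 0.0822).

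Reduced genes kept part of their difference. LAMB3, which encodes a chain of laminin-332 of the epithelial basement membrane, had 13.8, 12.4 and 11.6 CPM in WT, 2.56, 2.96 and 2.39 in untreated Kl and 6.19, 7.78 and 5.17 in treated Kl libraries, so treated Kl cells lay between the other groups without overlap (-2.26 to -0.97). The neurofilament NEFM had 23.7, 22.8 and 20.6 CPM in WT, 5.18 to 5.27 in untreated Kl and 8.23, 8.31 and 7.67 in treated Kl cells (-2.10 to -1.47). AKNA, a centrosome-associated protein, went from 15.5, 15.9 and 15.3 CPM in WT to 5.54 in untreated Kl on average and 9.28, 10.1 and 10.3 in treated Kl cells. QPRT, an enzyme of NAD synthesis, had been higher in Kl cells. It was reduced in the fit to the 12 libraries of 24 h, as were SNAI1, a repressor of CDH1, and SP5, a WNT target. Their calls against WT were lost when 1 library was left out, with adjusted p of 0.134 and 0.137 for SNAI1, 0.128, 0.0512 and 0.178 for SP5, and 0.0651 and 0.055 for QPRT.

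The lowest genes in treated Kl cells were nearly all kept. ADCY2, an adenylyl cyclase, had 7.73, 8.36 and 7.75 CPM in WT and 0.939, 0.604 and 1.31 in treated Kl libraries (log2 -3.08, SE 0.196), and 1.02, 1.38 and 1.29 in untreated Kl cells. CTNND2, the neural delta-catenin, had 23.9, 22.3 and 20.6 CPM in WT and 3.26, 2.81 and 3.52 in treated Kl cells. The kinase NRK (-3.07) and the peroxisomal membrane protein PXMP4 (-2.84) had line differences of -3.22 and -2.77 without FGF23. In the 1 h controls these 4 genes were lower in Kl cells, at -2.49 to -2.11. Of the 12 lowest genes, 10 were kept, and FAM84A was enlarged. On the high side, H3.Y and 3 TAF11-like genes of chromosome 5 were kept above WT at 2.63 to 3.21, but these lie in a repeated array whose copies could share reads.

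Sterol synthesis genes, the SREBP targets that make cholesterol, were higher in Kl cells in either state. In treated Kl cells 16 of 25 tested were higher and 1 lower than WT, with a median of 0.26, and without FGF23 20 were higher and 1 lower, with a median of 0.44. FGF23 in Kl cells lowered 14 and raised 4. HMGCS1, an early enzyme of the pathway, had 670.3, 654 and 670.2 CPM in WT, 987 ± 29.99 in untreated Kl and 865, 844 and 835 in treated Kl libraries. MVD, further along, was removed (0.66 to 0.08). INSIG1, which holds SREBP back, did the reverse and went from 0.68 to 0.91. In the 1 h controls INSIG1 (0.53) was called higher in Kl cells, and HMGCS1 (0.10) and MVD (0.07) were not.

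**Figure D3:**
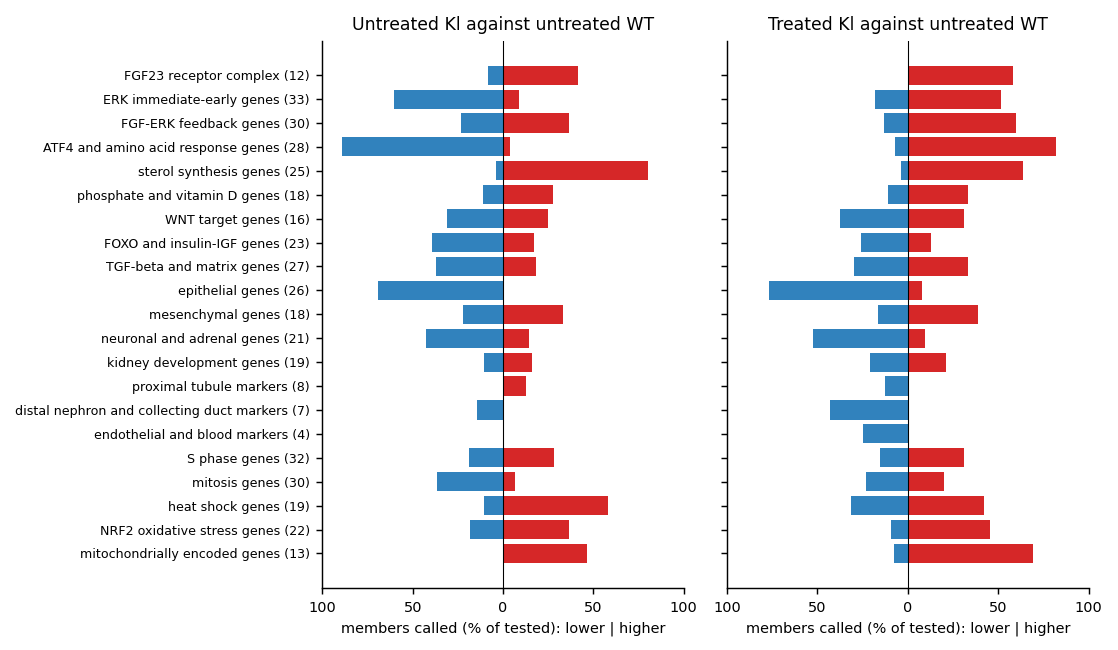
Share of tested members of each gene list (number tested in brackets) called lower (blue, left) or higher (red, right) than untreated WT cells at 24 h, for untreated Kl cells and for treated Kl cells. Both panels share the WT libraries. ATF4 genes go from 25 of 28 lower to 23 of 28 higher, while epithelial genes stay lower, with 18 and then 20 of 26.

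TGF-beta and matrix genes split, with 9 higher and 8 lower of 27 in treated Kl cells and a median of 0.07 (-0.00 with library totals alone). These counts are 33.3 and 29.6% of the list, against 21.6 and 18.7% of all genes tested. TGFB1 had 66.3, 69.2 and 66 CPM in WT, 57.3, 49.1 and 53.5 in untreated Kl and 110.2, 113 and 112 in treated Kl libraries, so its difference went from -0.33 to 0.73. CTGF, a matricellular protein, was reversed (-0.75 to 1.06), and the laminin chain LAMA4 went from 0.39 to 1.19. COL5A1, a fibrillar collagen chain, moved down, from -0.78 to -1.16, and COL1A1 was kept below WT (-0.86). In the insulin and IGF list, 3 of 23 were higher (13%) and 6 lower (26.1%). IRS1, the adaptor of insulin and IGF receptors, was added, with 44.4, 42 and 42.7 CPM in WT, 42.6 ± 2.3 in untreated Kl and 76.5, 81.4 and 73.6 in treated Kl cells. IGFBP5, an IGF-binding protein, was higher than WT in untreated Kl cells (0.34) and lower after FGF23 (-0.39).

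Among the other lists, neuronal and adrenal genes had 2 higher and 11 lower of 21 tested in treated Kl cells and 3 higher and 9 lower in untreated ones, and of 7 tested neuronal markers 1 was higher and 6 lower. The summed level of all 9 was 221 to 229 FPKM in WT and 248 to 276 in treated Kl libraries. UCHL1, a neuronal ubiquitin hydrolase and the marker that was higher, made up most of this sum, with a mean of 137 FPKM in WT and 183 in treated Kl cells. WNT targets had 5 higher and 6 lower of 16, and cyclin D1, CCND1, was the most raised of them, with 41.2, 35.9 and 40.2 CPM in WT, 52.6 ± 1.03 in untreated Kl and 78.7, 79.95 and 84.5 in treated Kl libraries. Over all genes tested, 21.6% were higher and 18.7% lower. Kidney development genes, with 4 higher and 4 lower of 19 (21.1% each), were near these shares. Heat shock genes had 8 and 6 of 19, and NRF2 genes 10 and 2 of 22. S phase genes had 10 higher and 5 lower of 32, and mitosis genes 6 and 7 of 30 (20 and 23.3%, also near the shares over all genes). These splits became 6 and 11, and 4 and 12, with library totals alone. Of 13 mitochondrially encoded genes, 9 were higher and 1 lower, but 5 were higher with library totals alone. Proximal tubule, distal nephron and endothelial and blood markers had 0 higher and 1 of 8, 3 of 7 and 1 of 4 lower. Without replicate 1 of treated Kl cells, list medians moved by at most 0.07 and 39 of 42 list counts stayed within 1.5 times. The others were the phosphate genes given above, sterol genes (2 lower in place of 1) and proximal tubule markers (1 higher in place of 0).

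Further added genes were ALPK2, a kinase (log2 2.31), the receptor GPR3 (1.97), endothelial lipase LIPG (1.38), and on the lower side ALDH3B1 (-1.55) and prostaglandin E synthase PTGES (-1.44). GPR3 had 0.834, 0.839 and 0.604 CPM in WT and 3.15, 2.56 and 3.35 in treated Kl libraries. Of 148 added genes tested in the 1 h controls, 15 (10.1%) were called there in the same direction and 5 in the other, against 10.7% higher and 10.9% lower over all genes. Added genes were chosen for having no called line difference at 24 h. SLC2A14, a glucose transporter gene close in sequence to SLC2A3 whose reads it may share, was enlarged at 24 h.

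Line differences that the 1 h controls set on their own were then read in treated Kl cells at 24 h. In those controls 3548 of 16470 genes passed (21.5%) and 750 reached 1.5-fold (4.55%), of which 742 were tested at 24 h. In treated Kl cells 487 of them (65.6%) were called in the same direction against untreated WT, 21 (2.83%) in the opposite direction and 234 (31.5%) not at all. Genes lower in Kl cells persisted more than those higher in Kl cells: 350 of 467 (74.9%) against 137 of 275 (49.8%), with medians of -0.90 at 1 h and -0.81 at 24 h against 0.86 and 0.38. The difference between these shares was not tested. The same genes without FGF23 at 24 h had medians of -0.89 and 0.50. The 21 opposite genes held 17 that were lower in Kl cells at 1 h, among them PTGS2, EGR2, FOSL1, PHLDA2, ASNS, PSAT1, TRIB3 and ELSPBP1. ELSPBP1, known as a sperm-binding protein of the epididymis, was at -2.56 in the 1 h controls and at 0.64 in treated Kl cells, but the latter call was lost without replicate 1 of treated Kl (adjusted p 0.0645) or replicate 1 of WT cells (0.103). The other 4 included IGFBP5 and TMEM132B. For SLC2A14, PHF21B and CTNNA3, also among the 21, the 24 h line difference had the opposite sign without FGF23 (1.228, -0.298 and -0.091).

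**Figure D4:**
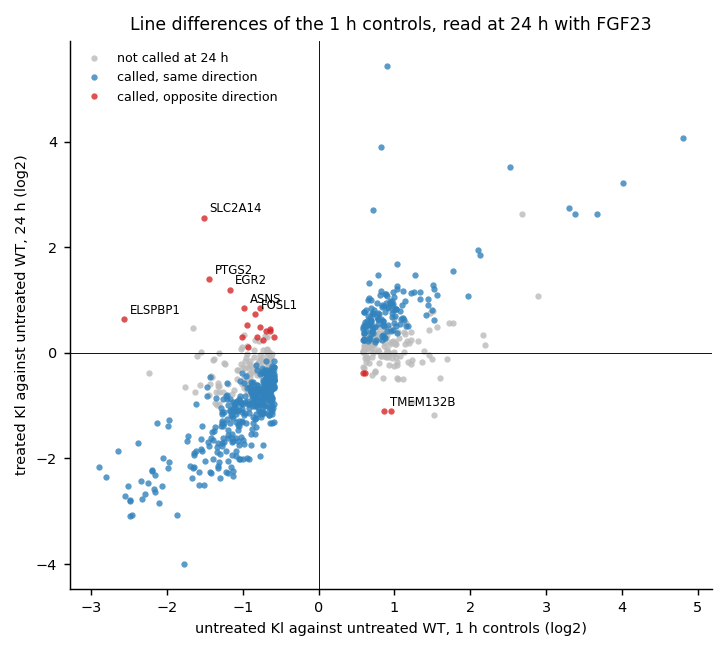
Each point is one of 742 genes that differed by at least 1.5-fold between untreated Kl and untreated WT cells in the 1 h controls (x axis, log2), placed by its difference between treated Kl and untreated WT cells at 24 h (y axis, log2). The axes share no library. KL lies outside the plot. With KL, 487 genes keep their direction (blue), and the 21 red points, PTGS2 and EGR2 among them, have the opposite direction. For SLC2A14, PHF21B and CTNNA3 the untreated line difference of 24 h had that direction too.

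Genes that kept a line difference were unevenly spread over chromosomes. On chromosome 9, 60 of 716 tested genes (8.38%) were kept and on chromosome 20, 39 of 434 (8.99%), against 3.51% of all tested genes. The median log2 difference of treated Kl from untreated WT was -0.33 over chromosome 9 and -0.35 over chromosome 20, and 66.3 and 69.1% of their genes were called lower. Chromosome 7 had a median of 0.22, chromosome 18 of 0.17 and chromosome 6 of 0.15. The 1 h controls gave -0.32, -0.36, 0.22, 0.15 and 0.15 for the same 5 chromosomes. FGF23 in Kl cells moved the medians of these chromosomes by at most 0.04. Copy number was not measured, and its part in these values was not tested. Added genes were 0.698% of those tested on chromosome 9 and 1.38% on chromosome 20, against 0.920% of all.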

How the data were processed

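RNA-seq libraries of HEK293 and HEK293-Kl cells were made with an NEBNext Ultra kit from column-purified RNA and sequenced commercially, per the labels. The deposited tables held raw counts per gene, the authors' normalized signal (counts over a size factor), FPKM, and the authors' log2 fold changes, p-values and adjusted p-values of FGF23 against control. The deposited comparisons were not used here, nor was the authors' normalized signal. FPKM served for summed markers alone. Aligner, counter, stranding and the authors' test are not given in the sources used here. The submitters' processing notes name the build mm10, but 34299 of 34305 genes had the start and end of GENCODE 29 (GRCh38).

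Counts of the 24 h tables, 1 for WT and 1 for Kl cells, were joined by gene ID. A gene listed in 1 table only (4982 of 31868, at most 14 counts) was taken as 0 in the other. With edgeR 4.0.16 in R 4.3.3, the 12 libraries of 24 h were fitted as 4 groups (TMM, filterByExpr by group, robust quasi-likelihood F test, 8 residual degrees of freedom), and 17173 genes were tested with Benjamini-Hochberg adjustment. Controls of 1 h had their own fit of 16470 genes. SE is the size of the log2 fold change over the root of F. CPM is scaled by TMM. Total counts of 15849564 to 30446989 per library set the precision. Counts of 17173 genes were simulated, of which 16900 were fitted. Only 50 genes were changed at each fold, and all others had 1 mean in every group. The treated Kl against untreated WT test found 54, 72, 80 and 96% of genes changed 1.25, 1.5, 2 and 4-fold, with 6 false calls among 157. In the data 40.3% of genes were called, so these rates need not carry over. Alternatives were RLE and library-size scaling, no filter and a stricter one (CPM of at least 1 in 3 libraries), DESeq2 1.42.0, other sets of libraries, each library left out, and the replicate number as a block. List counts without replicate 1 of treated Kl cells were added after the values were seen.

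The comparison, gene lists and classes were chosen with earlier results of these data known. By rule, genes named were the 12 highest and 12 lowest protein-coding genes of the comparison with a mean CPM of at least 1 and libraries that do not overlap (libraries of 25.1% of genes lay wholly higher and 22.9% wholly lower), up to 8 per class by size of effect, 3 per list by p, and 21 fixed genes. A few genes so chosen are not reported here. Other list members, and genes named from the 1 h reading, were chosen after their values were seen. Python 3.11.15, pandas 2.3.3 and matplotlib 3.10.9 were used.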

Additional observations from a re-analysis of the deposited data

Results flagged for a closer look

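The line difference of the untreated cells (Kl against WT, log2) was itself tested between 24 h and 1 h over 12 control libraries with edgeR, and 795 of 17204 genes passed. Among the genes chosen for each class by size of effect, 6 did so. The 24 h value minus the 1 h value was -1.02 for FUT1, -0.91 for PCSK1, -1.04 for AKNA and -0.72 for NEFM, all of which were lower in Kl cells at both times and further below WT at 24 h. LIPG differed by -0.77, from 0.43 at 1 h to -0.33 at 24 h, but neither line difference was itself called (adjusted p 0.0527 and 0.0975). SLC2A14 differed by 2.75, from -1.51 at 1 h to 1.23 at 24 h, and its untreated Kl libraries of 24 h spread from 0.367 to 1.95 CPM. Genes of the classes that were chosen by other rules passed too. Among them were the enlarged gene KRT19 (-0.42, adjusted p 0.0054) and the kept genes SYT11 (-1.24, adjusted p 0.00221) and SH2D3C (-1.71, adjusted p 0.0211).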

How the results depend on the processing

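Leaving out each library in turn gave 5844 to 7189 called genes (3034 to 3740 higher, 2730 to 3449 lower), 1268 to 1526 at 1.5-fold (323 to 344 higher, 936 to 1182 lower), 118 to 154 removed, 16 to 20 reversed, 17 to 28 reduced, 524 to 611 kept, 32 to 48 enlarged and 136 to 205 added genes. The 1 h line differences read at 24 h were then 453 to 477 in the same direction, 18 to 22 opposite and 248 to 271 not called. With all 24 libraries in the fit, 4558 genes were called (2302 higher), with 105 removed, 15 reversed, 12 reduced, 587 kept, 18 enlarged and 153 added. The cause was not tested. DESeq2 gave 99 removed, 15 reversed, 18 reduced, 416 kept, 38 enlarged and 133 added genes. Of the original members, 86 of 132 removed, 405 of 602 kept and 116 of 158 added genes stayed in their class with DESeq2. Scaled by library totals alone, 2402 genes were called higher. A 2-fold minimum at 1 h left fewer genes, with 192 in the same direction, 5 opposite and 80 not called, and DESeq2 gave 13 opposite. Values of 2 uncalled genes changed sign: FGFR3 ranged from -0.05 to 0.02 and FUT1 from -0.01 to 0.03 with 1 library left out, and FUT1 was -0.06 by library totals and -0.00 with the stricter filter. Of 120 named genes, 104 kept call and direction under every alternative run.

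With the replicate number as a block 7064 genes were called, with 126 removed, 18 reversed, 25 reduced, 608 kept, 45 enlarged and 162 added. Same-numbered libraries of treated Kl and untreated WT cells deviated from their group means with correlations of 0.01 to 0.02, so no pairing by number was seen. A weak pairing could be missed this way. In the simulation, where few genes were changed, 3 libraries a group often left small differences unfound. Low genes such as SP5 or PAPPA2, near 2 CPM, carry wide intervals.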
